A study of Mus musculus with 12 samples.

Results

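The genes examined here are 33 targets and regulators of p53, the transcription factor encoded by Trp53, in mouse embryonic stem cells that lack a subunit of the HUSH complex. They were listed by symbol, and each symbol matched 1 of the 57180 genes listed in the deposited tables. RNA of C57BL/6 mouse embryonic stem cells was sequenced in 12 libraries. MP8 cells were null for Mphosph8, Tas cells for Tasor and Pph cells for Pphln1, and WT cells carried none of these losses, with 3 libraries in each group. The labels do not state how the null cells were made, nor do they tie each library to a clone or culture of its own; every p-value below therefore reflects library-to-library spread, which may be technical. HUSH is a chromatin complex that silences retroelements and other transcription units with the help of histone H3 lysine 9 methylation.

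p53 is held at low protein levels by the ubiquitin ligase MDM2 and its partner MDM4. Stress on DNA, on ribosomes or on nucleotide supply releases p53, which then binds response elements near its target genes. The targets slow the cell cycle, repair DNA, promote cell death and, through Mdm2, feed back on p53 itself. In mouse embryonic stem cells p53 is abundant and is known to favour differentiation over self-renewal. Its activity is set largely at the protein level, which RNA counts do not measure.

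The library totals ranged from 17918770 to 21962079 estimated counts. The transcript of the targeted gene was lower in its own null group, with Mphosph8 at 0.306 ± 0.350 CPM (counts scaled to the effective library size, mean ± SD, n = 3) in MP8, against 113 ± 3.23 CPM in WT. Tasor stood at 31.9 ± 1.19 CPM in Tas, against 126 ± 2.70 CPM in WT, and Pphln1 at 21.3 ± 1.66 CPM in Pph, against 68.5 ± 2.91 CPM in WT. All 12 embryonic stem cell markers looked at were well detected in the 4 groups, Pou5f1 at 892 ± 6.64 CPM in MP8, 963 ± 3.14 CPM in Tas, 713 ± 18.8 CPM in Pph and 946 ± 36.5 CPM in WT.

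Most of the 33 p53 genes had more transcript in each null group than in WT, and the median change was largest in MP8. These genes were chosen with earlier results of these data known. Among 46 further p53 targets the median log2 fold changes were smaller, at 0.09 in MP8, 0.07 in Tas and 0.14 in Pph. Ccng1, a cyclin induced by p53, stood 2.37-fold higher in MP8, 1.44-fold in Tas and 1.59-fold in Pph. Cd80 rose most in MP8, and Perp rose most in Pph. Trp53 itself did not rise in any null group. The 5 genes of DNA repair and nucleotide supply were split in MP8, with 2 higher and 3 lower. Beside them, 30.0% of all tested genes were higher and 32.2% lower in MP8. Counts out of 5 are too few to set against such shares. Of the 33 genes, 32 passed the filter on low counts and were tested. The exception was Fas, a death receptor, with 1 to 8 deposited counts per library. Each tested gene had at least 32.2 deposited counts in every library, so none passed through one group alone.

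In MP8, 25 of the 32 tested genes were called higher, where 30.0% of all 16840 tested genes were, and 4 were called lower, where 32.2% were. A call is an adjusted p below 0.05 in edgeR's quasi-likelihood test, adjusted by Benjamini-Hochberg over all tested genes. The median log2 fold change was 0.52 for the p53 genes and -0.02 for all tested genes. In Tas, 20 were called higher and 4 lower, where 26.2% of all tested genes were higher and 25.5% lower, with a median of 0.25 against -0.01 over all tested genes. In Pph, 22 were called higher and 3 lower, where the shares of all tested genes were 30.6% and 25.7%, with a median of 0.40 against 0.04. Changes of 2-fold or more upward numbered 8 of 32 in MP8, 2 in Tas and 4 in Pph, where 9.96%, 6.59% and 8.91% of all tested genes rose that far, and no p53 gene fell 2-fold, where 4.38%, 3.62% and 2.24% of all tested genes did. The 3 libraries of MP8 lay wholly above those of WT for 24 of the 32 genes and wholly below for 5, where 31.9% and 34.1% of all tested genes did so. In Tas these numbers were 20 and 3, beside 29.2% and 28.9%, and in Pph 22 and 3, beside 33.2% and 27.1%. The 3 comparisons share the WT libraries, so they are not independent of each other.

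**Figure D1:**
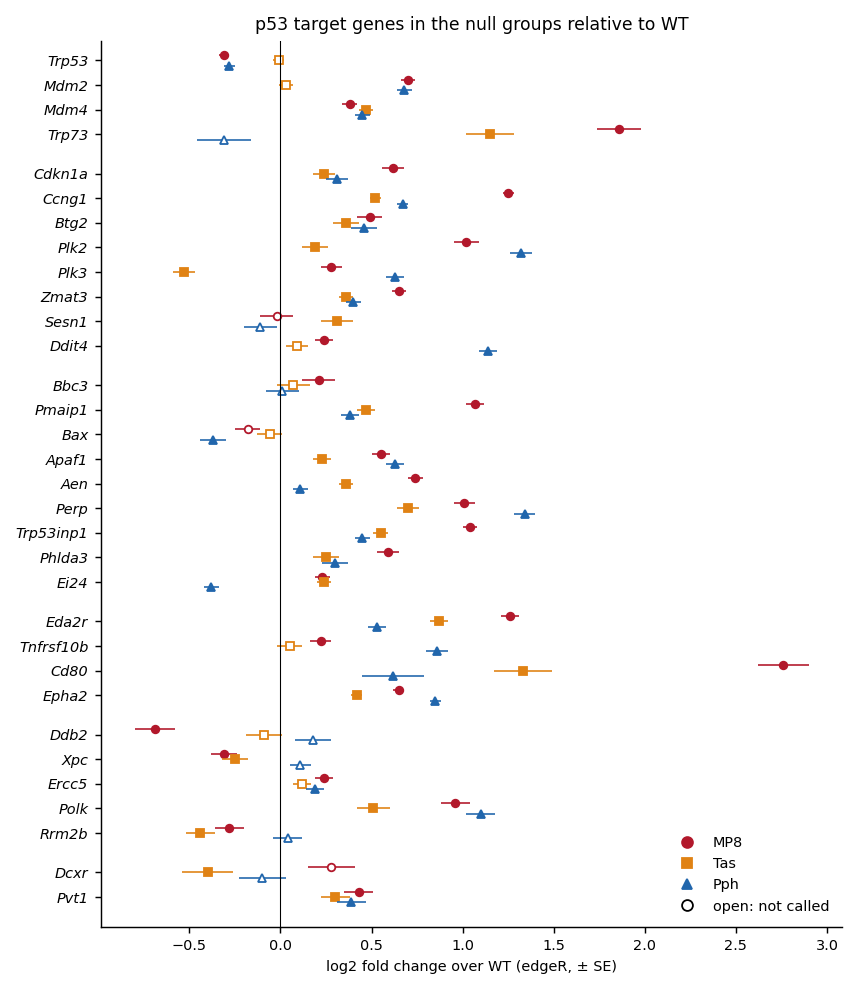
Log2 fold change of the 32 tested p53 genes in MP8, Tas and Pph over WT, with the standard error of the edgeR fit and genes grouped by role; filled symbols were called. Most symbols lie right of 0, Cd80 in MP8 lies farthest right at 2.76, and Ddb2 in MP8 farthest left at -0.69.

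The promoters of 24 of the 33 genes could be read from RefSeq (build GRCm38.p6), as windows of 300 bases from 250 before to 50 after an annotated start site. They were searched for the p53 half-site of 10 bases, which reads the same way on both strands, and for the p53 full site of 20 bases, made of a pair of half-sites without a spacer, with at most 2 mismatches outside the central C and G of each half-site. A full site lay in a window of 4 of the 24 genes (16.7%), against 0.392% of the 27025 genes in the table and 0.475% of the 11779 tested genes found in it. An exact half-site lay in 9 of the 24 (37.5%), against 9.55% of all genes; these were Aen, Bax, Ccng1, Cdkn1a, Ei24, Mdm2, Polk, Sesn1 and Trp53. The genes were picked as known p53 targets, so matching letters near their start sites are a description and not a finding about binding in these cells. All 4 windows with a full site are shown. Cd80, Trp73 and Ccng1 were among the 8 genes that rose at least 2-fold in MP8, and Cdkn1a, the best known p53 target, was not. Of the other genes that rose so far, Eda2r and Plk2 had windows without a match. Perp, Pmaip1 and Trp53inp1 had no window to read. A link between sites and the size of the rise was not tested. Capitals mark the sites, and all other bases are in lower case, 5′ to 3′ on the strand of the gene.
Ccng1, chr11:40755237-40755536, minus strand, full site with 1 mismatch: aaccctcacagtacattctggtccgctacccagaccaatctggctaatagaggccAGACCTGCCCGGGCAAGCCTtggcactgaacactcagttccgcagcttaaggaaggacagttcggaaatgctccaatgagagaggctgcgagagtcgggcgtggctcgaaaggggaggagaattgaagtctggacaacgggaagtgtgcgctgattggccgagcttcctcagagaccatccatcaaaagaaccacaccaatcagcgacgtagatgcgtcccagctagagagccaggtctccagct
Cd80, chr16:38458683-38458982, plus strand, full site with 2 mismatches: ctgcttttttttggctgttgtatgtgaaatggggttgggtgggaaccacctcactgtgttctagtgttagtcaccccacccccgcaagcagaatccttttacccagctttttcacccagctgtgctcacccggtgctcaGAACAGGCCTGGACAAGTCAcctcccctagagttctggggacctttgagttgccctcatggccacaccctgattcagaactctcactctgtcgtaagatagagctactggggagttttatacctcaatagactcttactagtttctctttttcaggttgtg
Cdkn1a, chr17:29090729-29091028, plus strand, 1 further half-site and a full site with 1 mismatch: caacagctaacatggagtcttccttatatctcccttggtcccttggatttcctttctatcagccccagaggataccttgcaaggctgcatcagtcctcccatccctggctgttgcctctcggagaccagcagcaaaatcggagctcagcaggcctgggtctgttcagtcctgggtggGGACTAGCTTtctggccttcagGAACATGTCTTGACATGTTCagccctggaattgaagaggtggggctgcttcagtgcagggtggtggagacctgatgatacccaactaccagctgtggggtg
Trp73, chr4:154097124-154097423, minus strand, full site with 2 mismatches: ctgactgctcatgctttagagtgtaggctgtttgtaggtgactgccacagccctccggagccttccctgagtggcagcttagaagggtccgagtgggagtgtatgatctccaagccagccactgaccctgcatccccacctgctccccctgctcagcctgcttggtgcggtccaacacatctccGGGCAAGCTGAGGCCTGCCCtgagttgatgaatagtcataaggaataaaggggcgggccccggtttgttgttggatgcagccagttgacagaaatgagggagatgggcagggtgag
The Cdkn1a window belongs to a start site 2790 bases upstream of the other annotated one, whose own window held no match. The Trp73 window belongs to the downstream one of its annotated start sites, and the window of the upstream one held no match. Gene-level counts do not tell which start site was used.

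Among p53 and its regulators, Trp53 was lower and its feedback inhibitor Mdm2 higher in MP8 and Pph, while neither was called in Tas. Trp53 had 330.0, 324 and 344 CPM in MP8, 398, 415 and 417 CPM in Tas and 344, 357 and 323 CPM in Pph, against 422, 404 and 414 CPM in WT. The MP8 and Pph libraries lay below every WT library, and the Tas libraries overlapped WT. The log2 fold change was -0.31 ± 0.03 in MP8 (edgeR adjusted p = 4.99e-09), -0.01 ± 0.03 in Tas (edgeR adjusted p = 0.824) and -0.28 ± 0.03 in Pph (edgeR adjusted p = 7.03e-08).

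Mdm2 encodes the ligase that marks p53 for destruction and is itself switched on by p53. Its level was 174, 172 and 169.9 CPM in MP8, 109, 109 and 107 CPM in Tas and 173, 165 and 170.0 CPM in Pph, against 105, 110.0 and 103 CPM in WT. The MP8 and Pph libraries stood clear above WT, by 0.70 ± 0.04 and 0.68 ± 0.04 on the log2 scale (edgeR adjusted p = 1.3e-16 and 4.81e-16), and the Tas libraries overlapped WT (0.03 ± 0.04, edgeR adjusted p = 0.505). Mdm4, the related inhibitor that lacks strong ligase activity, had 279.9, 294 and 290.1 CPM in MP8, 308, 302 and 306 CPM in Tas and 309.9, 289 and 305 CPM in Pph, against 223, 234 and 206 CPM in WT. No null library overlapped WT, and Mdm4 was higher in MP8 (0.38 ± 0.04), Tas (0.47 ± 0.04) and Pph (0.45 ± 0.04) (largest edgeR adjusted p = 5.73e-10). Mdm4 was thus called in Tas, where Mdm2 was not.

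Trp73 encodes p73, a relative of p53 that binds the same elements. It had 12.03, 11.7 and 11.5 CPM in MP8, 7.197, 6.81 and 7.48 CPM in Tas and 2.34, 2.801 and 2.64 CPM in Pph, against 2.76, 3.62 and 3.34 CPM in WT. MP8 and Tas libraries lay above WT, while Pph libraries overlapped it and were the lowest on average. The log2 fold change was 1.86 ± 0.12 in MP8 (edgeR adjusted p = 4.94e-14), 1.15 ± 0.13 in Tas (edgeR adjusted p = 9.79e-09) and -0.31 ± 0.15 in Pph (edgeR adjusted p = 0.0814). The last value passed the threshold at -0.42 without WT replicate 1.

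**Figure D2:**
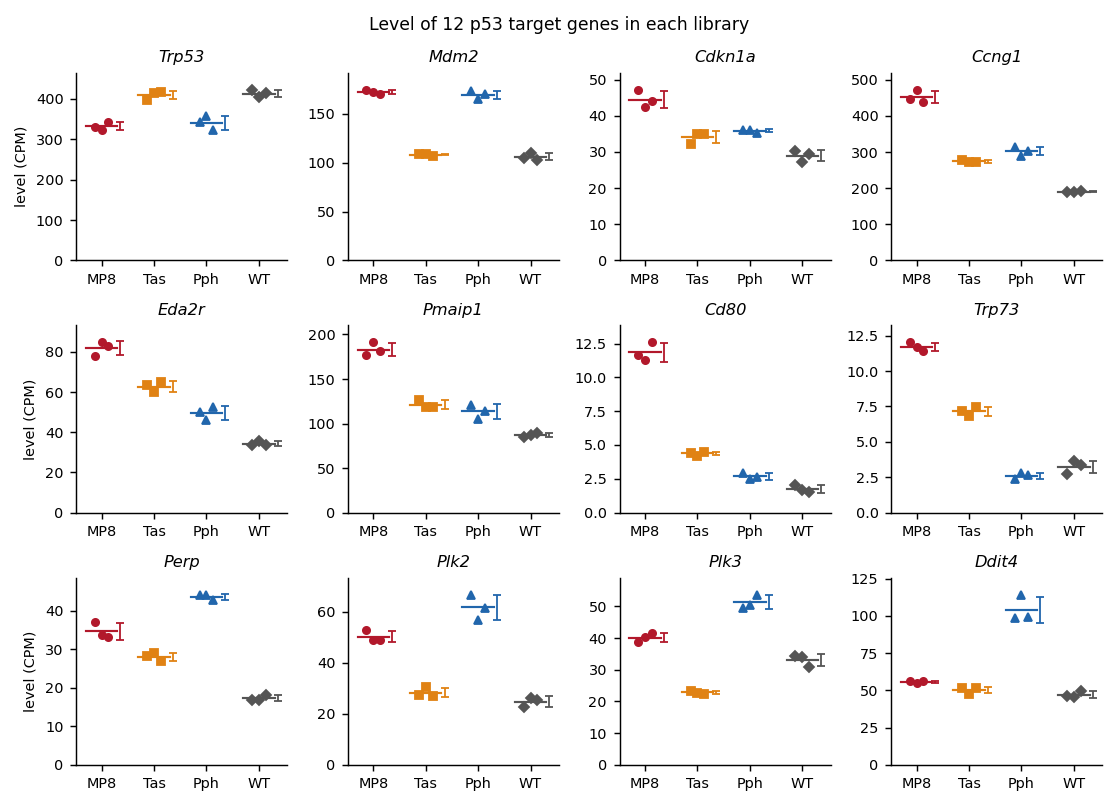
Level in CPM of 12 p53 genes in each of the 12 libraries, with the group mean as a line and the SD as a bar beside it (n = 3 each). Eda2r, Pmaip1, Cd80 and Trp73 are highest in MP8, Perp, Plk2, Plk3 and Ddit4 are highest in Pph, and Plk3 in Tas lies below WT.

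Of the 8 growth arrest and signalling genes, 7 were higher in MP8, 6 higher and 1 lower in Tas, and 7 higher in Pph. Of all tested genes 30.0%, 26.2% and 30.6% were called higher in MP8, Tas and Pph, and 32.2%, 25.5% and 25.7% lower. Counts out of 8 give only coarse shares. Cdkn1a encodes p21, the inhibitor of cyclin-dependent kinases that carries out p53-dependent arrest. Its level was 47.1, 42.3 and 44.03 CPM in MP8, 32.3, 34.99 and 35.1 CPM in Tas and 36.1, 36.2 and 35.3 CPM in Pph, against 30.2, 27.2 and 29.5 CPM in WT. Each null group lay above WT without overlap, and MP8 was the highest. The log2 fold change was 0.62 ± 0.06 in MP8, 0.24 ± 0.06 in Tas and 0.31 ± 0.06 in Pph (edgeR adjusted p = 1.04e-10, 0.00121 and 4.75e-05).

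Ccng1 encodes cyclin G1, which recruits a phosphatase to MDM2. It was the most abundant riser of this group, with 447, 471 and 438 CPM in MP8, 278, 272 and 273 CPM in Tas and 314, 290.4 and 304 CPM in Pph, against 189.8, 189.6 and 192 CPM in WT. The spread within each group was small beside the gaps between MP8, either of the other null groups, and WT. The log2 fold change was 1.25 ± 0.03 in MP8, 0.52 ± 0.03 in Tas and 0.67 ± 0.03 in Pph (largest edgeR adjusted p = 6.16e-14).

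The polo-like kinases Plk2 and Plk3, both stress-responsive relatives of the mitotic kinase PLK1, followed another order. Plk2 had 52.8, 49.1 and 48.9 CPM in MP8, 27.5, 30.5 and 27.1 CPM in Tas and 66.8, 56.9 and 61.8 CPM in Pph, against 22.6, 26.3 and 25.6 CPM in WT. Pph was the highest and MP8 came next, at 1.32 ± 0.06 and 1.02 ± 0.07 over WT on the log2 scale (edgeR adjusted p = 7.54e-16 and 2.19e-13). In Tas the change was 0.19 ± 0.07 (edgeR adjusted p = 0.0232), a call lost at 0.13 without WT replicate 1, at 0.14 without Tas replicate 2 and at 0.15 with upper-quartile scaling. Plk3 had 38.7, 40.2 and 41.5 CPM in MP8, 23.4, 22.5 and 22.5 CPM in Tas and 49.5, 50.5 and 53.7 CPM in Pph, against 34.3, 33.96 and 30.7 CPM in WT. It was higher than WT in MP8 (0.28 ± 0.06) and in Pph (0.63 ± 0.05) and lower in Tas (-0.53 ± 0.06), in each case without overlap (largest edgeR adjusted p = 6.63e-05). It was the only member called higher in MP8 and Pph and lower in Tas.

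Ddit4 encodes REDD1, an inhibitor of the growth kinase complex mTORC1 that also answers to hypoxia and to the integrated stress response. Its level was 56.4, 54.9 and 55.98 CPM in MP8, 51.8, 47.8 and 51.2 CPM in Tas and 98.7, 114 and 99.2 CPM in Pph, against 45.9, 45.8 and 49.9 CPM in WT. It stood apart in Pph, 1.14 ± 0.05 over WT (edgeR adjusted p = 5.74e-17), with a change of 0.24 ± 0.05 in MP8 and an overlap with WT in Tas (0.09 ± 0.06). A value in parentheses after a group is its log2 fold change over WT. Btg2, an antiproliferative gene, rose in MP8 (0.49), Tas (0.36) and Pph (0.46) on the log2 scale. Zmat3, an RNA-binding splicing regulator, rose in MP8 (0.65), Tas (0.36) and Pph (0.40). Sesn1, a sestrin that restrains mTORC1, was called in Tas (0.31 ± 0.09) and not in MP8 (-0.02 ± 0.09) or Pph (-0.11 ± 0.09), though without Pph replicate 3 it was called lower in Pph (-0.24).

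Of the 9 genes that act in cell death inside the cell, 8 were called higher in MP8, 7 in Tas and 6 in Pph, beside 30.0%, 26.2% and 30.6% of all tested genes. The 2 that were lower in Pph, Bax and Ei24, are a share near the 25.7% of all tested genes. Counts out of 9 give only coarse shares. Pmaip1 encodes NOXA, which frees the mitochondrial death pathway by blocking MCL1. It had 177, 191 and 181 CPM in MP8, 127, 118 and 119 CPM in Tas and 121, 105 and 115 CPM in Pph, against 85.2, 86.8 and 89.9 CPM in WT. All null libraries lay above WT and the MP8 libraries above the rest. The log2 fold change was 1.07 ± 0.05 in MP8, 0.47 ± 0.05 in Tas and 0.38 ± 0.05 in Pph (largest edgeR adjusted p = 5.21e-08). Bbc3, which encodes PUMA, the other main p53-induced protein of that class, moved little: 24.8 ± 1.64 CPM in MP8, 22.4 ± 1.51 CPM in Tas and 21.5 ± 1.97 CPM in Pph, against 21.4 ± 2.81 CPM in WT (SD, n = 3 each). Its call in MP8 (0.21 ± 0.09, edgeR adjusted p = 0.0333) was lost without MP8 replicate 1 (0.17), MP8 replicate 2 (0.20) or WT replicate 2 (0.12), with the replicate block (0.21) and with upper-quartile scaling (0.17), and the libraries overlapped.

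Bax, the pore-forming effector, was lower in Pph (-0.37 ± 0.07, edgeR adjusted p = 0.000899) and was not called in MP8 (-0.18 ± 0.07, edgeR adjusted p = 0.0518) or Tas (-0.06 ± 0.07, edgeR adjusted p = 0.517). Its levels were 118 ± 3.55 CPM in MP8, 128 ± 2.15 CPM in Tas and 103 ± 13.4 CPM in Pph, against 134 ± 7.58 CPM in WT. The 3 MP8 libraries lay wholly below WT, and Bax was called lower in MP8 with DESeq2 (-0.16), upper-quartile scaling (-0.22), no low-count filter (-0.18) or only MP8 and WT fitted (-0.16). It was also called there without Pph replicate 1, 2 or 3 (-0.18 each) or WT replicate 2 (-0.22). Apaf1, the scaffold of the apoptosome, rose in MP8 (0.55), Tas (0.23) and Pph (0.63) on the log2 scale; on the authors' TPM scale the Tas value was 0.06 and not called.

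Perp encodes a tetraspan membrane protein of desmosomes that promotes death in some cells and adhesion in epithelia. It had 37.2, 33.7 and 33.3 CPM in MP8, 28.4, 28.96 and 26.998 CPM in Tas and 44.2, 44.1 and 42.7 CPM in Pph, against 16.9, 16.9 and 18.2 CPM in WT. All null libraries lay above WT, in the order Pph, MP8, Tas, with log2 fold changes of 1.01 ± 0.06 in MP8, 0.70 ± 0.06 in Tas and 1.34 ± 0.06 in Pph (largest edgeR adjusted p = 1.57e-10). Trp53inp1, a stress protein that promotes p53 activity and autophagy, had 263, 282 and 263 CPM in MP8, 186, 195 and 193 CPM in Tas and 181, 173 and 185 CPM in Pph, against 127, 134 and 133 CPM in WT. All null libraries lay above WT, with MP8 the highest at 1.04 ± 0.04, Tas at 0.55 ± 0.04 and Pph at 0.45 ± 0.04 (largest edgeR adjusted p = 1.81e-11).

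Aen, a nuclease of apoptotic cells, rose in MP8 (0.74) and Tas (0.36); its call in Pph (0.11 ± 0.04, edgeR adjusted p = 0.0153) was lost with DESeq2 (0.09), with upper-quartile scaling (0.08), with only Pph and WT fitted (0.08), without Pph replicate 3 (0.10) and without WT replicate 3 (0.08), and the libraries overlapped. Phlda3, an inhibitor of AKT, rose in MP8 (0.59), Tas (0.25) and Pph (0.30). Ei24, a membrane protein of the endoplasmic reticulum with a role in autophagy, moved in both directions. It was at 114 ± 1.304 CPM in MP8, 115 ± 1.78 CPM in Tas and 74.97 ± 0.773 CPM in Pph, against 97.3 ± 1.99 CPM in WT, so it rose in MP8 and Tas (0.23 ± 0.04 and 0.24 ± 0.04) and fell in Pph (-0.38 ± 0.04), without overlap (largest edgeR adjusted p = 3.82e-06).

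All 4 tested surface genes were higher in MP8 and in Pph, and 3 in Tas, beside 30.0%, 26.2% and 30.6% of all tested genes in MP8, Tas and Pph. Counts out of 4 are too few to set against such shares. Cd80, a ligand that co-stimulates T cells and is known mainly from immune cells, had 11.7, 11.3 and 12.6 CPM in MP8, 4.44, 4.21 and 4.47 CPM in Tas and 2.94, 2.45 and 2.64 CPM in Pph, against 2.07, 1.64 and 1.51 CPM in WT. The 4 groups did not overlap, and MP8 stood far above the rest. The log2 fold change was 2.76 ± 0.14 in MP8 (edgeR adjusted p = 1.11e-16), 1.33 ± 0.16 in Tas (edgeR adjusted p = 3.65e-08) and 0.62 ± 0.17 in Pph (edgeR adjusted p = 0.0034). The deposited counts of Cd80 were not whole in any of the 12 libraries (tolerance 1e-9), as can happen where the counter divides reads between features. Of 12 immune cell markers 6 were tested. Of these, 3 were higher and 1 lower in MP8, 3 higher in Tas and 2 higher in Pph. Their summed level was 23.8 to 28.3 CPM in MP8, 22.97 to 23.96 CPM in Tas and 31.1 to 34.9 CPM in Pph, against 20.4 to 21.6 CPM in WT. Ptprc, the common leukocyte antigen, was at 0.397 ± 0.169 CPM in MP8, against 0.126 ± 0.0233 CPM in WT, and Itgax had 0 counts in all libraries. The part of immune cells in the Cd80 result was not tested.

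Eda2r, a receptor of the TNF receptor family encoded on the X chromosome, had 78.1, 84.7 and 82.8 CPM in MP8, 63.4, 59.9 and 64.97 CPM in Tas and 50.3, 45.97 and 52.6 CPM in Pph, against 33.6, 35.8 and 33.4 CPM in WT. The groups were ordered MP8, Tas, Pph, WT without overlap, at 1.26 ± 0.05, 0.87 ± 0.05 and 0.53 ± 0.05 over WT (largest edgeR adjusted p = 1.17e-09). Tnfrsf10b, the mouse receptor of the death ligand TRAIL, had 24.2, 25.5 and 24.98 CPM in MP8, 23.97, 20.7 and 21.9 CPM in Tas and 38.6, 38.01 and 39.7 CPM in Pph, against 21.2, 22.01 and 20.8 CPM in WT. It was highest in Pph, 0.86 ± 0.06 over WT (edgeR adjusted p = 5.58e-13), against 0.22 ± 0.06 in MP8, and overlapped WT in Tas. Epha2, an ephrin receptor kinase, had 309.8, 298 and 311 CPM in MP8, 257, 267 and 262 CPM in Tas and 342, 368 and 344 CPM in Pph, against 191, 201 and 195 CPM in WT. It rose in MP8 (0.65 ± 0.03), Tas (0.42 ± 0.03) and Pph (0.85 ± 0.03) (largest edgeR adjusted p = 1.12e-11). Fas stayed at the detection limit, at 0.193 ± 0.1399 CPM in MP8, 0.238 ± 0.0897 CPM in Tas and 0.237 ± 0.1602 CPM in Pph, against 0.255 ± 0.184 CPM in WT, and a difference was not detectable at this depth.

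The 5 genes of DNA repair and nucleotide supply changed in both directions: 2 rose and 3 fell in MP8, 1 rose and 2 fell in Tas, and 2 rose in Pph. Among all tested genes 30.0%, 26.2% and 30.6% rose and 32.2%, 25.5% and 25.7% fell in these comparisons, and counts out of 5 are too few to set against such shares. Ddb2, the damage sensor of nucleotide excision repair for ultraviolet lesions, had 6.59, 5.94 and 5.63 CPM in MP8, 8.66, 8.67 and 10.1 CPM in Tas and 10.9, 12.004 and 10.4 CPM in Pph, against 9.56, 10.2 and 9.55 CPM in WT. MP8 lay below the other groups, at -0.69 ± 0.11 relative to WT (edgeR adjusted p = 2.33e-06), with -0.09 ± 0.10 in Tas and 0.18 ± 0.10 in Pph, neither of them called. The Pph libraries lay wholly above WT. Ddb2 was called higher in Pph with library totals only (0.23) and on the TPM scale (0.28). Exons of Ddb2 overlap those of Acp2 on the opposite strand, and its counts were not whole in any library. Polk, a polymerase that copies past damaged bases, had 25.3, 23.9 and 21.6 CPM in MP8, 16.7, 16.7 and 18.6 CPM in Tas and 27.5, 24.1 and 26.9 CPM in Pph, against 12.6, 12.8 and 11.1 CPM in WT. All null libraries lay above WT, for MP8 (0.96 ± 0.08), Tas (0.51 ± 0.09) and Pph (1.10 ± 0.08) alike (largest edgeR adjusted p = 9.26e-06).

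Xpc, the general damage sensor of nucleotide excision repair, fell in MP8 (-0.31) and Tas (-0.25) on the log2 scale, and was not called in Pph (0.11 ± 0.06). The Tas libraries of Xpc overlapped WT, and in Tas the call was lost on the TPM scale (-0.21). In Pph Xpc was called higher without WT replicate 2 (0.17), with library totals only (0.16) and on the TPM scale (0.27). Rrm2b, the p53-induced subunit of ribonucleotide reductase, fell in MP8 (-0.28) and Tas (-0.44) and was not called in Pph (0.04 ± 0.08). On the TPM scale neither fall was called (-0.09 and -0.18) and the Pph value was called higher at 0.30. Ercc5, an endonuclease of the same repair pathway as Xpc, rose in MP8 (0.24) and Pph (0.19) and was not called in Tas (0.12 ± 0.05, edgeR adjusted p = 0.0507). It was called higher in Tas on the TPM scale (0.27), without Tas replicate 1 or WT replicate 3 (0.16 each) and without any 1 of the Pph libraries (0.13 each). Of the remaining genes, the long noncoding RNA Pvt1 rose in MP8 (0.43), Tas (0.30) and Pph (0.39). Dcxr, a carbonyl reductase, was lower in Tas (-0.40 ± 0.14, edgeR adjusted p = 0.0148), a call lost without WT replicate 3 (-0.31), without Tas replicate 3 (-0.36) and on the TPM scale (-0.36). In MP8 it was not called (0.28 ± 0.13, edgeR adjusted p = 0.0569). It was called higher there without MP8 replicate 2 (0.35), Pph replicate 1 (0.28) or WT replicate 3 (0.37). RLE scaling (0.30), library totals only (0.32), only MP8 and WT fitted (0.30) and the TPM scale (0.38) also gave that call. Exons of Cdkn1a, Ddb2, Ei24, Plk3, Pvt1, Rrm2b and Trp73 overlap a gene on the opposite strand in GENCODE, and whether the counting used strand is not given in the sources used here, so reads of such neighbours cannot be told apart.

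The null groups were then compared with each other in the same fit. MP8 exceeded Tas for 20 of the 32 genes and was lower for 3, where 27.7% and 28.4% of all tested genes were called, and the median difference was 0.30 on the log2 scale. MP8 exceeded Pph for 14 and was lower for 9, where 27.4% and 31.4% of all tested genes were called, with a median difference of 0.04. Tas exceeded Pph for 9 and was lower for 13, where 28.5% and 29.3% of all tested genes were called, with a median difference of -0.08. Over all tested genes these medians were 0.00, -0.02 and 0.00. By mean level, MP8 was the highest of the 4 groups for 16 of the 32 genes, Tas for 3, Pph for 11 and WT for 2. How often each group was the highest over all tested genes was not counted, so these numbers only describe the list.

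Genes that were highest in MP8 included Cd80, at 1.44 ± 0.12 over Tas and 2.15 ± 0.13 over Pph (edgeR adjusted p = 2.84e-11 and 1.72e-14), and Trp73, at 0.71 ± 0.11 over Tas and 2.17 ± 0.13 over Pph (edgeR adjusted p = 2.18e-06 and 5.13e-15). Ccng1 was higher in MP8 than in Tas by 0.72 ± 0.03 and than in Pph by 0.58 ± 0.03. Eda2r in MP8 was above Tas (0.38 ± 0.05) and Pph (0.72 ± 0.05), and so was Pmaip1 (0.59 ± 0.04 and 0.69 ± 0.04). Each of these 5 genes was also called for both differences under every other setting tried.

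Other genes were highest in Pph. The 9 of 32 genes called lower in MP8 than in Pph are 28.1%, near the 31.4% of all tested genes. Ddit4 was lower in MP8 than in Pph (-0.90 ± 0.05) and lower in Tas than in Pph (-1.05 ± 0.05) (edgeR adjusted p = 9.22e-15 and 3.29e-16). Tnfrsf10b showed the same (-0.64 ± 0.06 and -0.81 ± 0.06), as did Plk3 (-0.35 ± 0.05 and -1.17 ± 0.06) and Plk2 (-0.30 ± 0.06 and -1.12 ± 0.06). Perp was lower in MP8 than in Pph (-0.33 ± 0.06) and in Tas than in Pph (-0.64 ± 0.06). Ddb2 in MP8 was -0.87 ± 0.11 relative to Pph and -0.60 ± 0.11 relative to Tas. Mdm2 did not pass the test between MP8 and Pph (0.02 ± 0.04) and was lower in Tas than in Pph (-0.65 ± 0.04).

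**Figure D3:**
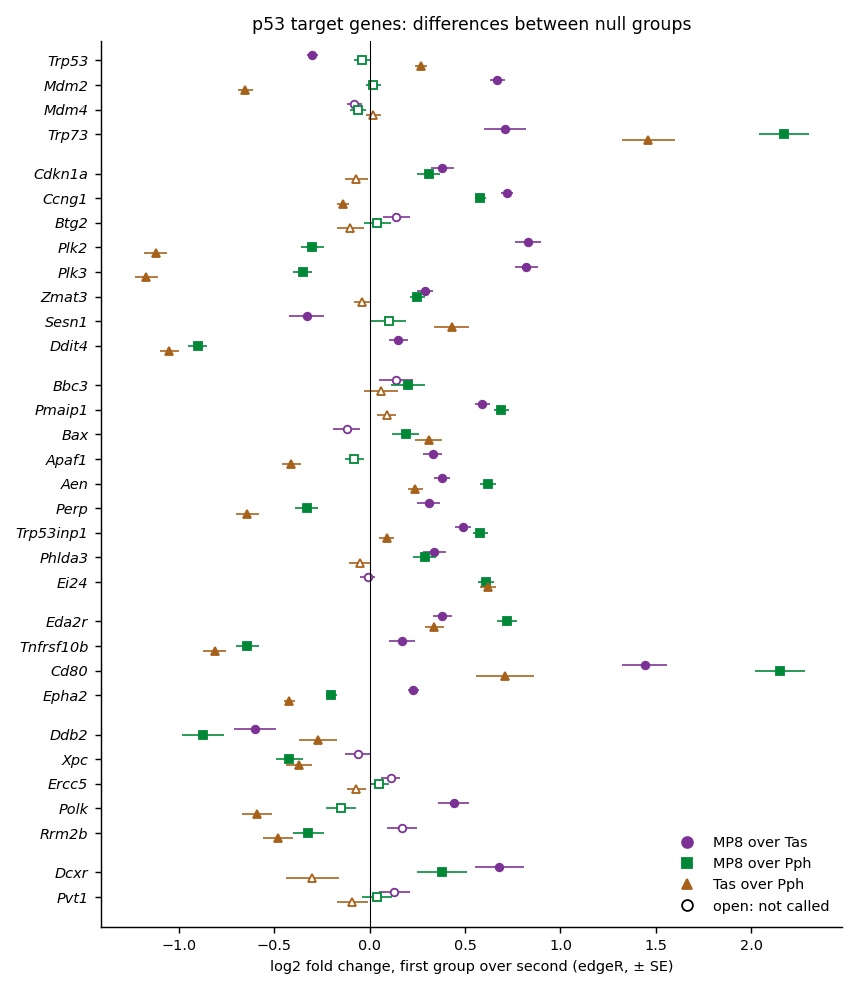
Log2 fold change of the 32 tested p53 genes between null groups, with the standard error of the edgeR fit; filled symbols were called. Cd80 and Trp73 lie farthest right for MP8 over Pph (2.15 and 2.17), and Plk3, Plk2 and Ddit4 farthest left for Tas over Pph (-1.17, -1.12 and -1.05).

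Markers of other cell types also differed, most of all in Pph. Of 9 tested trophectoderm markers, 8 were higher in Pph, with a summed level of 795 to 838 CPM in Pph against 99.8 to 103 CPM in WT; Krt8 and Krt18 made up most of it, and Tpbpa had 0 counts in all libraries. Of 9 tested fibroblast markers, 8 were higher in Pph, with a summed level of 72.9 to 76.1 CPM in Pph against 26.5 to 28.5 CPM in WT. Of 9 tested primitive endoderm markers, 6 were higher in Pph, at a summed 1078 to 1123 CPM in Pph against 602 to 614 CPM in WT. Sparc, Lamb1 and Col4a1 made up most of that sum. Gata4 and Gata6 were near the detection limit, at 1.18 ± 0.386 and 0.414 ± 0.139 CPM in Pph. In MP8, 5 trophectoderm, 5 fibroblast and 6 primitive endoderm markers of 9 each were higher, and 1, 0 and 1 were lower. Their summed levels in MP8 were 111 to 115, 47.1 to 51.8 and 576 to 599 CPM. In Tas, 0, 1 and 3 of these markers were higher and 4, 4 and 0 lower, and the summed levels were 71.7 to 74.8, 29.99 to 31.3 and 728 to 732 CPM. Embryonic stem cell markers were lower for 8 of 12 and higher for 3 in MP8, lower for 5 and higher for 3 in Tas, and lower for 11 and higher for 1 in Pph. Over all tested genes, 30.0%, 26.2% and 30.6% were called higher in MP8, Tas and Pph, and 32.2%, 25.5% and 25.7% lower. The 3 primitive endoderm markers higher in Tas, and the 3 stem cell markers higher in MP8 and in Tas, are near such shares. Lists of 9 or 12 genes give only coarse shares. The part of these markers in the p53 gene results was not tested, and in bulk RNA more cells of a type and more RNA per cell cannot be told apart.

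Levels were also compared between the 33 genes on the authors' TPM scale, which accounts for transcript length. Trp53 was the highest, at 305 ± 8.95 TPM in MP8, 361 ± 8.28 TPM in Tas and 326 ± 14.4 TPM in Pph, against 356 ± 4.37 TPM in WT. Bax came next, at 279 ± 9.93 TPM in WT, and then Ccng1 at 76.7 ± 1.05 TPM. Aen and Epha2, at 70.8 ± 4.91 and 70.8 ± 2.57 TPM in WT, did not differ beyond their spread. Cdkn1a stood in the middle, at 43.04 ± 2.77 TPM in MP8, 32.000 ± 1.93 TPM in Tas and 35.5 ± 1.41 TPM in Pph, against 25.3 ± 1.36 TPM in WT. The large fold changes of Cd80 and Trp73 started from low levels, with Cd80 at 9.61 ± 0.463 TPM in MP8 against 1.12 ± 0.131 TPM in WT and Trp73 at 4.003 ± 0.631 TPM in MP8 against 0.957 ± 0.1405 TPM in WT. In MP8, Ccng1 reached 194 ± 7.803 TPM, more than any other of the 33 genes except Trp53 and Bax.

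**Figure D4:**
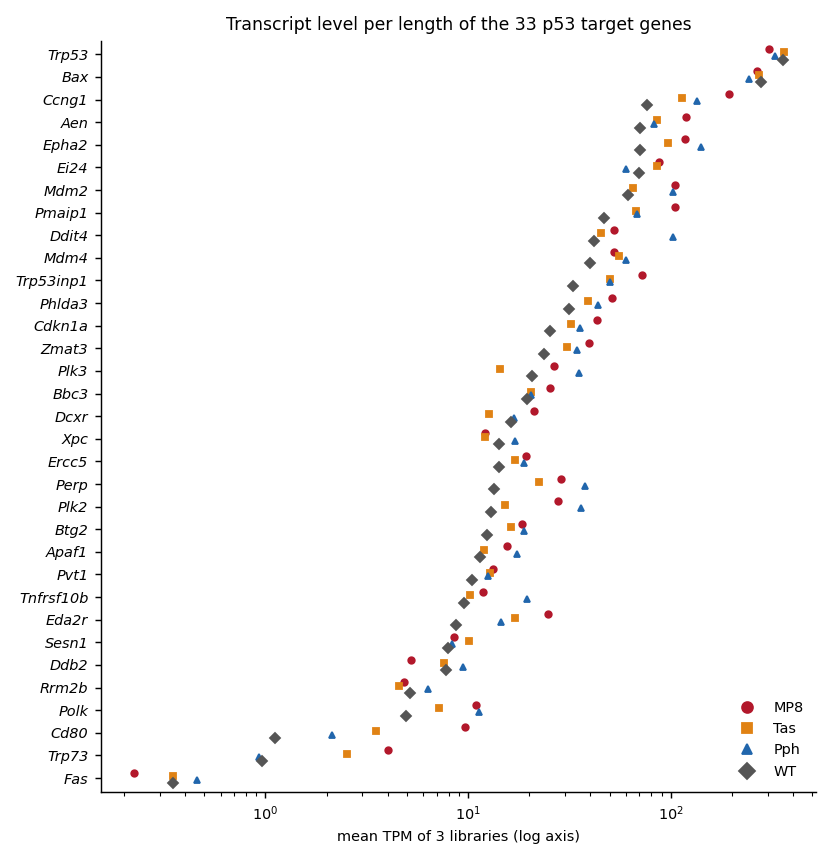
Mean TPM of 3 libraries per group for the 33 p53 genes, on a log axis and ordered by the WT mean. Trp53 and Bax are at the top, Fas is at the bottom, and Cd80 and Trp73 show the widest gap between MP8 and WT.

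Other genes of the p53 pathway, from lists that share no gene with the 33, were counted in the same fit. Of 46 tested further p53 targets, 19 were higher and 14 lower in MP8, 20 higher and 13 lower in Tas, and 24 higher and 10 lower in Pph, with medians of 0.09, 0.07 and 0.14. The medians of all tested genes, -0.02, -0.01 and 0.04, stand beside these and the following lists, as do the shares called higher (30.0%, 26.2% and 30.6%) and lower (32.2%, 25.5% and 25.7%). The metalloreductase Steap3 rose in MP8 (1.86), Tas (0.67) and Pph (0.46), with 19.9 ± 0.807 CPM in MP8 against 5.46 ± 0.218 CPM in WT. The phosphatase Ptpn14, a brake on YAP, also rose in MP8 (1.24), Tas (0.23) and Pph (1.25), with 196 ± 6.21 CPM in MP8 and 197 ± 5.29 CPM in Pph, against 82.9 ± 6.12 CPM in WT. Gadd45a, a stress sensor induced by p53, fell in MP8 (-0.66) and Tas (-1.83) on the log2 scale, reaching 7.57 ± 0.5704 CPM in Tas against 26.9 ± 1.05 CPM in WT, and was not called in Pph (0.07). Lif, the cytokine that sustains mouse embryonic stem cells, rose in MP8 (0.38) and Pph (1.79) and fell in Tas (-0.38), with 20.4 ± 1.03 CPM in Pph against 5.87 ± 0.956 CPM in WT. The epoxide hydrolase Ephx1 rose in MP8 (0.71) and Tas (1.03) and was not called in Pph (-0.01).

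Of 38 tested upstream regulators of p53, 8 were higher and 14 lower in MP8, 12 higher and 9 lower in Tas, and 10 higher and 17 lower in Pph, with medians of -0.06, 0.02 and -0.08. In MP8 and Tas these shares were near those of all tested genes. The acetyltransferase Crebbp rose in MP8 (0.71) and Tas (0.43) and was not called in Pph (0.10). The methyltransferase Setd7 rose in MP8 (0.60) and Pph (0.88) and was not called in Tas (0.02). Cdkn2a, the locus of the MDM2 inhibitor ARF, rose in Pph to 11.1 ± 1.23 CPM against 6.48 ± 0.436 CPM in WT, and was not called in MP8 (-0.15) or Tas (0.01). Usp2, a deubiquitinase of MDM2, fell in MP8 (-1.08) and Tas (-0.57) and was not called in Pph (0.15). Atr, a kinase of the replication stress response, fell in MP8 (-0.46) and Pph (-0.12) and was not called in Tas (0.04).

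p53 also lowers many cell cycle genes indirectly, through p21 and the DREAM repressor complex. Of 40 such genes, 28 were lower and 4 higher in MP8, 10 lower and 14 higher in Tas, and 20 lower and 7 higher in Pph, with medians of -0.20, -0.04 and -0.10. Mybl2, a transcription factor of the cell cycle, fell in MP8 (-0.80), Tas (-0.36) and Pph (-0.35). The mitotic cyclin Ccnb2 fell in MP8 (-0.61), Tas (-0.30) and Pph (-0.40). Mcm5, a subunit of the replicative helicase, rose in Tas (0.67) and fell in MP8 (-0.36) and Pph (-0.46).

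Of 33 tested genes of the general apoptosis machinery, 8 were higher and 13 lower in MP8, 8 higher and 9 lower in Tas, and 9 higher and 8 lower in Pph, with medians of -0.14, -0.10 and -0.01. These shares were near those of all tested genes. Bak1, the pore-forming relative of Bax, fell in MP8 (-1.32), Tas (-0.77) and Pph (-0.64), to 20.4 ± 0.755 CPM in MP8 against 51.1 ± 1.33 CPM in WT. The TNF receptor Tnfrsf1a rose in MP8 (1.18) and Pph (1.30) and was not called in Tas (0.38). Bcl2l11, which encodes the death activator BIM, rose in MP8 (0.41) and Pph (0.63) and fell in Tas (-0.28).

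**Figure D5:**
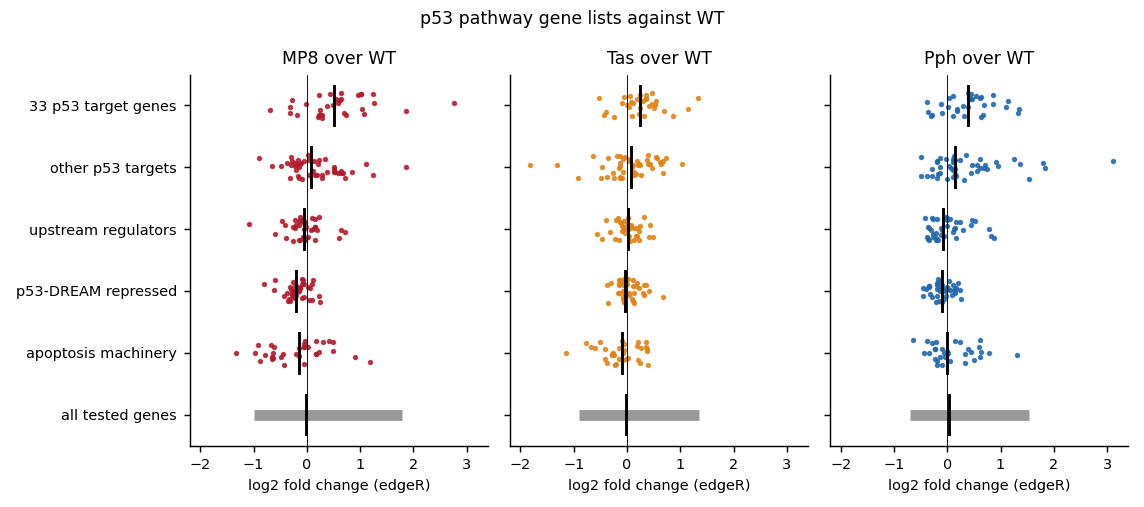
Log2 fold change over WT in MP8, Tas and Pph for the 32 tested p53 genes and 4 further pathway lists, 1 point per gene, with the median as a vertical line; the grey bar spans the 5th to 95th percentile of all tested genes. The median of the 33-gene list lies right of 0 in each panel (0.52, 0.25 and 0.40).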

How the data were processed

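The 3 deposited tables were used, each setting 1 null group beside the same WT libraries, whose values were identical in them. The build GRCm39 and the tools HISAT2 2.1.0, RSEM, FastQC and DESeq 1.26.0 are named, per the submitters' processing notes, without role or order. Per the file headers, the deposited columns were expected counts (estimated, not normalized), TPM per library, and the authors' fold change as a ratio with its log2, p-value and adjusted p-value. TPM summed to between 958836 and 991274 over the listed genes. The number of per-sample columns not tied to any library was 0.

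The members and gene lists were chosen with earlier results of these data known. Expected counts were rounded to whole numbers. After filterByExpr on the groups, 16840 genes remained; with TMM factors, edgeR 4.0.16 (R 4.3.3) fitted 12 libraries by a robust quasi-likelihood model of group means with 8 residual degrees of freedom. P-values were adjusted by Benjamini-Hochberg over all tested genes within each of 6 comparisons. CPM use the effective library size, and errors are SD of 3 libraries or SE of the fit.

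Per-library values are given for Trp53, Mdm2, Mdm4, Cdkn1a and each member called with an absolute log2 fold change of at least 0.8 in some comparison; from the pathway lists, genes were named among the 3 largest called changes per direction. Promoter windows came from RefSeq (GRCm38.p6) and exon overlaps from GENCODE, used for names only. Alternatives covered other scalings, no filter, DESeq2 1.42.0, limma 3.58.1 on log2(TPM + 0.1), the groups compared alone, a replicate block and leaving out each library.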

Additional observations from a re-analysis of the deposited data

Results flagged for a closer look

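Plk3 and Ei24 were called in opposite directions against WT in different null groups, and the differences between those groups were tested in the same fit. Plk3 was higher in MP8 than in Tas by 0.82 on the log2 scale and was at -1.17 in Tas relative to Pph. Ei24 was higher than in Pph by 0.61 in MP8 and by 0.62 in Tas. Genes were flagged here only if the difference between the null groups was itself called. The edgeR adjusted p of these 4 differences, at most 6.28e-13, is therefore no separate test. In each of them the 3 libraries of one group lay wholly above those of the other. That follows from the groups lying on opposite sides of WT without overlap. Groups of 3 are too small for a test of single outlying libraries.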

How the results depend on the processing

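Depth left Fas untested, and its difference between groups could not be seen. Leaving out 1 library at a time gave 24 to 26 p53 genes higher in MP8 than in WT, 19 to 21 in Tas and 21 to 23 in Pph, against 25, 20 and 22 with all libraries. The other settings gave 24 to 26, 19 to 20 and 21 to 25. Single calls were lost under some setting for 2 of 29 in MP8, 5 of 24 in Tas and 1 of 25 in Pph. Limma on log2(TPM + 0.1) left 1 p53 gene lower in Tas instead of 4, and put Trp53inp1 at -0.01 for Tas against Pph, where the counts gave 0.09 and a call. The number of p53 genes lower in MP8 than in Tas was 5 instead of 3 without the low-count filter and with only the 2 groups compared, and 3 to 5 leaving out 1 library, 5 without Pph replicate 2. For Tas against Pph, 9 p53 genes higher and 13 lower became 6 and 16 on TPM and 8 and 18 with library totals only. Over all genes, the TPM setting called 3426 genes lower in MP8, 2732 in Tas and 1875 in Pph than in WT, 3019 higher in MP8 than in Pph, and 2651 higher in Tas than in Pph, where the counts gave 5419, 4302, 4331, 4622 and 4803. With TPM, 60.0% of calls in MP8 and 75.8% in Pph were higher than in WT, where the counts gave 48.3% and 54.3%, and 33.4% for Tas against Pph, where the counts gave 49.3%. The median log2 fold change of all tested genes in Pph was then 0.17 instead of 0.04. The causes were not tested. Replicate numbers did not pair the libraries, with correlations of same-numbered libraries between -0.053 and 0.026 over 18 pairs. With the replicate block, 24 p53 genes were higher in MP8, 20 in Tas and 22 in Pph, and the call lost was Bbc3 in MP8; Bbc3 and Bax in MP8 against Pph were lost too.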

Other observations

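In the authors' deposited tables, 24 of the 33 p53 genes had an adjusted p below 0.05 and a higher level in MP8, 19 in Tas and 19 in Pph, and 4, 3 and 3 had a lower level. The shares of all genes called in those tables were not counted. These numbers come from the same libraries and only describe the list. The deposited tables listed Cd80 in Pph at a log2 fold change of 0.58 with an adjusted p of 0.141, and Bax in MP8 at -0.17 with 0.00633.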
